A study of Mus musculus with 6 samples.

Results

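Aminoacyl-tRNA synthetase genes were examined in mouse bone marrow cells that received the transcription factor HLX. The genes were taken by symbol, 20 for cytosolic and 16 for mitochondrial enzymes. The brightest probeset paired with a single symbol stood for each gene. Of these 36 genes 34 could be followed among 19938 genes in all, 18 cytosolic and 16 mitochondrial. The alanine gene Aars shared its probeset with Exosc6 and the aspartate gene Dars had no probeset paired with its symbol alone, so neither has a value here. The methionine gene Mars is listed as Mars1.

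The cells were the lineage-negative fraction with Kit and Sca-1 on its surface, from the marrow of young adult wild-type FVB/nJ mice. They were given either a lentivirus that carries mouse HLX and GFP (HLX_vector, 3 arrays) or the control lentivirus with GFP alone (control_vector, 3 arrays). Both sets were cultured for 2 days in serum with the mouse cytokines SCF, IL-6 and IL-3, and with polybrene at 8 µg/ml, and GFP-positive cells were sorted again before RNA was taken. The stated aim of the series was to find genes regulated by overexpressed HLX. A sample was 5000 to 10000 cells, and HLX came from a vector at a level set by the vector, not by the endogenous gene. The labels do not say whether replicates were separate mice or cultures, so every p-value below reflects only how far these arrays scatter, and that scatter may be technical.

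Most synthetases join 1 kind of amino acid to the tRNAs that carry it, and together they supply the codons that specify amino acids. Cytosol and mitochondria mostly use enzymes from separate nuclear genes, while the glycine and lysine enzymes, from Gars and Kars, serve both. Several cytosolic synthetases sit together in a multisynthetase complex on scaffold proteins. In mammalian cells uncharged tRNA activates the kinase GCN2, and the transcription factor ATF4 that follows is known to raise many cytosolic synthetase genes. Haematopoietic stem cells are known for a low rate of protein synthesis.

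Values are log2 expression levels per probeset made by RMA, a method that adjusts background, aligns arrays and summarises probes. A difference is HLX minus control, fitted with limma over all genes, and is given with its moderated SE. Hlx itself stood at 10.75, 9.74 and 10.28 with HLX, against 6.99, 7.29 and 7.62 with control. Every HLX array lay far above every control array, with a difference of 2.95 ± 0.27, although the adjusted p in limma was 0.0782. Of the stem and progenitor markers 7 of 8 measured lay above the median of all probesets (6.37), Kit among them, and the Sca-1 gene Ly6a had no probeset of its own symbol. Between the groups 1 of these 8 markers was above 0, Kit (0.088 ± 0.13), and 7 were below 0, with Flt3, a receptor of early progenitors, the lowest and without overlap (-0.68 ± 0.16, adjusted p = 0.901 in limma). Of the markers of other cells, 1 of 6 for B and T cells, 1 of 8 for mature granulocytes and monocytes, 0 of 4 for mast cells and basophils, 2 of 2 erythroid and 4 of 6 stromal and endothelial ones lay above the same median. Csf1r, the mature cell marker above that median, was at 6.49, 7.80 and 8.92 with HLX, against 6.28, 6.48 and 6.37 with control. Its groups did not overlap (1.36 ± 0.53, adjusted p = 0.9999 in limma). Of the other 7 mature cell markers 3 lay below control without overlap, Camp (-0.19 ± 0.10), Ly6g (-0.15 ± 0.095) and Ltf (-0.093 ± 0.090). All 3 were dim, with means below the median of all probesets. Above 0 with overlap, and dim as well, were Adgre1 (0.32 ± 0.18), S100a9 (0.17 ± 0.19), S100a8 (0.071 ± 0.14) and Ngp (0.015 ± 0.093). Among all genes 4.85% lay below control without overlap and 4.34% above. Among stromal and endothelial markers Pecam1 lay below control without overlap (-0.34 ± 0.11, adjusted p = 0.932 in limma). These single markers are named after their values were seen. The mean level of the mast cell and basophil markers was 4.48 to 4.71 on HLX arrays and 4.60 to 5.77 on control arrays, with control replicate 1 the highest. Of these 4 markers 1 was above 0, and Cpa3 lay below control without overlap (-0.99 ± 0.61, adjusted p = 0.9999 in limma). The part of these markers in the values below was not tested. In a sample of many cells, fewer cells of a type and less RNA per cell cannot be told apart.

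No synthetase gene passed the test between HLX and control cells. Among the cytosolic genes 14 of 18 were above 0, led by the histidine gene Hars (0.29 ± 0.11), and among the mitochondrial genes 8 of 16 were, with the asparagine gene Nars2 the lowest (-0.47 ± 0.20). All differences were small: the outermost were 0.719-fold for Nars2 and 1.24-fold for the arginine gene Rars2, HLX over control. The median difference was 0.037 for cytosolic genes and -0.011 for mitochondrial genes, beside -0.0078 for all genes, of which 47.5% were above 0. Limma called 0 of 34 members at an adjusted p under 0.05, with an adjusted p of 0.9999 for each, where the share called among all genes was 0%. At an unadjusted p under 0.05 stood 4 members, Hars and Lars2 above 0 and Wars2 and Nars2 below 0, against 4.80% of all genes, 2.44% above and 2.36% below. That count of members was 0 without HLX replicate 2, 6 without HLX replicate 3, and 1 without control replicate 2 or control replicate 3. The arrays of the 2 groups did not overlap in 4 members, Hars, Qars, Lars2 and Wars2, against 9.19% of all genes. Hars, Qars and Lars2 were the higher ones (4.34% of all genes) and Wars2 the lower one (4.85%). Each count of 4 is 11.8% of the members, and with so few members nothing particular to the synthetases is read from it.

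Intervals were taken gene by gene, and like the p-values they reflect only how far these arrays scatter. The 95% interval of the fold, HLX over control, lay wholly inside a 1.5-fold change in either direction for 25 members, 15 cytosolic and 10 mitochondrial. Intervals were narrowest for Eprs (0.894 to 1.18) and Lars (0.892 to 1.18). The lowest bound belonged to Nars2 (0.518 to 0.999) and the highest to Rars2 (0.926 to 1.66).

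**Figure D1:**
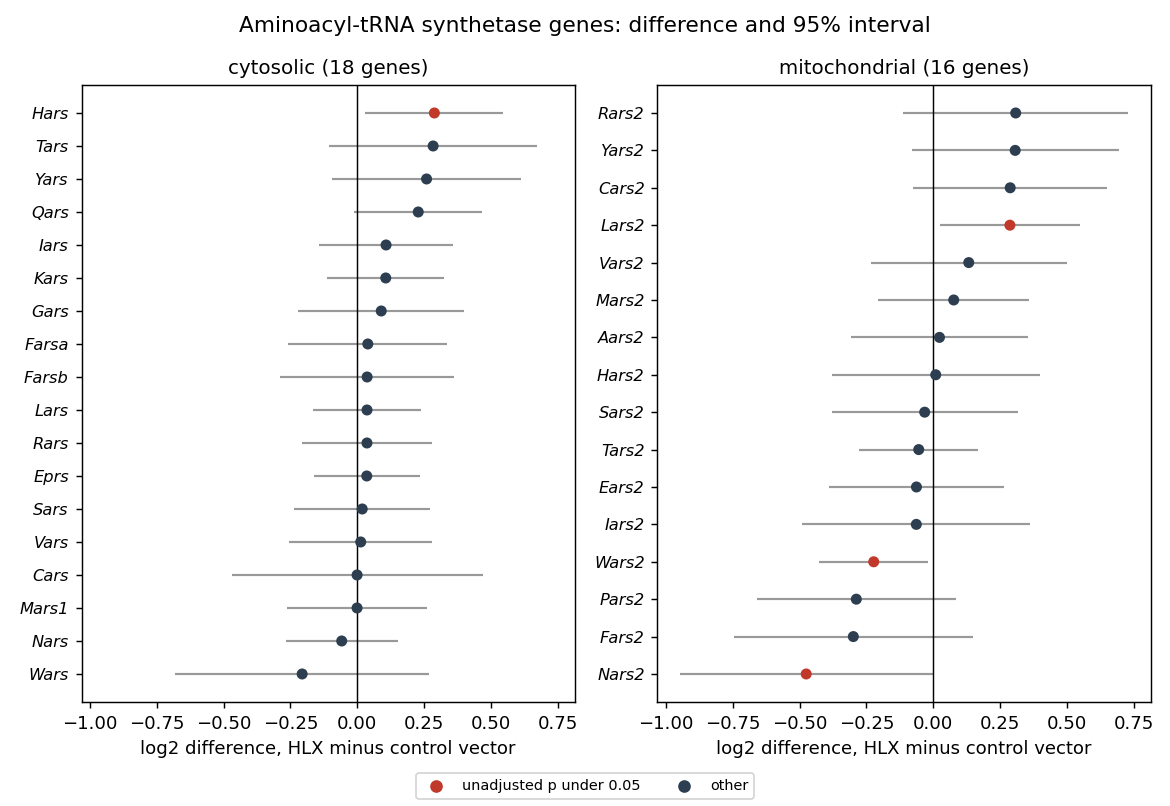
The log2 difference, HLX minus control vector, is plotted for 18 cytosolic and 16 mitochondrial synthetase genes with the 95% interval from limma (n = 3 arrays per group). Points in red had an unadjusted p under 0.05, which were Hars, Lars2, Wars2 and Nars2, and no gene passed the adjusted threshold.

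Among cytosolic enzymes of the multisynthetase complex, 6 of 7 measured genes were above 0, by small amounts (median 0.037). Qars, the glutamine enzyme's gene and 1 of the 4 without overlap, was at 8.55, 8.80 and 8.66 on the HLX arrays, against 8.48, 8.48 and 8.37 on the control arrays. Its difference was 0.23 ± 0.10 (unadjusted p = 0.0592, adjusted p = 0.9999 in limma). The lowest HLX array lay just above the highest control array, and Qars is described for that gap alone, seen after its values were known. Lars, whose leucine enzyme is also reported to sense leucine for the growth kinase mTORC1, was at 10.89, 10.89 and 10.83 on the HLX arrays, against 10.87, 10.83 and 10.80 on the control arrays. Eprs makes a single protein that charges both glutamate and proline tRNAs, and it was at 10.89, 10.91 and 10.85 on the HLX arrays, against 10.86, 10.84 and 10.84 on the control arrays. These genes were nearly flat, with differences of 0.037 ± 0.086 for Lars and 0.036 ± 0.084 for Eprs.

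The arginine gene Rars was at 11.27, 11.53 and 11.42 on the HLX arrays, against 11.43, 11.31 and 11.38 on the control arrays, and its groups overlapped (0.036 ± 0.10). Mars1, whose enzyme also charges the initiator tRNA, was at 8.88, 8.72 and 8.69 on the HLX arrays, against 8.73, 8.64 and 8.91 on the control arrays. Its difference of -0.00064 ± 0.11 was the nearest to 0 of this complex. The isoleucine gene Iars (0.11 ± 0.11) and the lysine gene Kars (0.11 ± 0.094) completed the complex. For Iars a dimmer probeset of the same symbol gave a difference of 0.0055, against 0.11 for the brighter one, so the probesets disagree in size, and where each lies in the genome was not checked.

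Outside the complex 8 of 11 measured cytosolic genes were above 0 (median 0.037), and this set holds the widest cytosolic differences. Hars was at 9.27, 9.33 and 9.29 on the HLX arrays, against 9.16, 8.83 and 9.04 on the control arrays. All 3 HLX arrays lay within 0.1 of each other and above every control array, while the control arrays were spread more widely (9.30 ± 0.033 with HLX and 9.01 ± 0.17 with control, SD, n = 3 each). The difference was 0.29 ± 0.11, or 1.22-fold (95% interval 1.02 to 1.46, unadjusted p = 0.033, adjusted p = 0.9999 in limma). Tars, the threonine gene, was at 9.69, 9.87 and 9.57 on the HLX arrays, against 9.69, 9.10 and 9.48 on the control arrays. Its groups overlapped because HLX replicates 1 and 3 did not exceed control replicate 1, and control replicate 2 was the lowest array by a wide margin (0.28 ± 0.17). Without control replicate 2 the difference of Tars was 0.12. Yars, the tyrosine gene, was at 9.03, 8.82 and 8.60 on the HLX arrays, against 8.79, 8.46 and 8.43 on the control arrays. Replicate 1 was the highest array of each group, and HLX replicate 3 lay below control replicate 1 (0.26 ± 0.15). Without HLX replicate 1 the difference of Yars was 0.15.

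The remaining enzymes outside the complex differed less. Farsa and Farsb encode the alpha and beta subunits of the phenylalanine enzyme, which works only as an assembly of both. Farsa was at 8.62, 8.41 and 8.39 on the HLX arrays, against 8.42, 8.25 and 8.62 on the control arrays. Farsb was at 9.43, 9.48 and 9.25 on the HLX arrays, against 9.61, 9.26 and 9.18 on the control arrays. Neither subunit separated the groups, with differences of 0.040 ± 0.13 and 0.037 ± 0.14. Farsa was at -0.033 without HLX replicate 1, and Farsb at -0.012 without HLX replicate 2. The cysteine gene Cars was at 8.69, 8.08 and 8.73 on the HLX arrays, against 8.66, 8.24 and 8.60 on the control arrays. Both groups held an array near 8.1 to 8.2, replicate 2 in each, and the difference was -0.00052 ± 0.20. Gars had a difference of 0.090 ± 0.13, the serine gene Sars 0.019 ± 0.11 and the valine gene Vars 0.013 ± 0.11.

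Nars and Wars were the cytosolic genes furthest below 0. Nars, for asparagine, was at 11.15, 11.14 and 11.02 on the HLX arrays, against 11.19, 11.16 and 11.12 on the control arrays, with all 6 arrays close together (-0.058 ± 0.090). Wars, for tryptophan, was at 8.54, 8.26 and 8.49 on the HLX arrays, against 9.10, 8.38 and 8.42 on the control arrays. A single array, control replicate 1, stood apart, and the remaining 5 overlapped (-0.21 ± 0.20, unadjusted p = 0.342). Without control replicate 1 the difference of Wars was 0.028, so its sign rests on that array. Wars is known in human cells as a gene that interferon raises. The mean level of 11 interferon response genes was 7.39, 6.57 and 6.60 on the HLX arrays, against 7.58, 6.54 and 6.84 on the control arrays. Control replicate 1 was the highest array for these genes as well as for Wars. HLX replicate 1 was the next highest for both. Their part in the level of Wars was not tested.

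**Figure D2:**
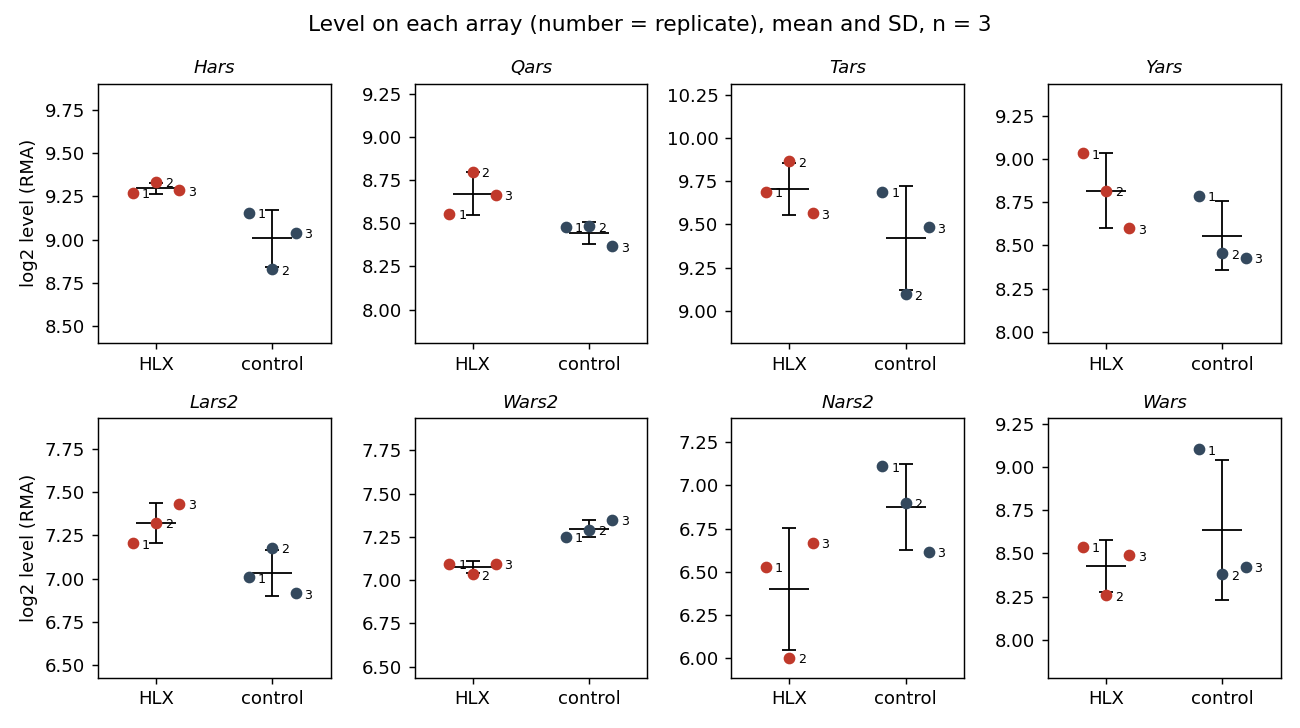
Log2 levels by RMA are shown for 8 synthetase genes, HLX arrays at left and control arrays at right in each panel, with the replicate number beside each point and the mean and SD (n = 3) as bars. Each vertical axis spans the same range of 1.5 log2 units. Hars, Qars, Lars2 and Wars2 have no overlap between groups, and control replicate 1 stands apart for Wars.

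ATF4 binds with C/EBP partners at a composite element, which was searched in promoters as the letters TGATGNAA on both strands (N is any base). RefSeq promoters of build GRCm38.p6, from 250 bases before to 50 after the start site, were at hand for 13 cytosolic and 14 mitochondrial members. The letters were present in 5 of 13 cytosolic promoters (38.5%) and in 0 of 14 mitochondrial promoters, against 3.97% of 32851 promoters in the table. They were also present in 7 of 23 promoters of the amino acid response list described below. The matches are printed with 16 bases on either side, so that their likeness and their flanks can be compared, and capitals mark the match. Each reads 5′ to 3′ on the strand that carries the letters, and Aars has 2 matches that do not overlap.
Aars (chr8:111033714-111033753, minus strand): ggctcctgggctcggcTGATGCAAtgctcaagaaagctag
Aars (chr8:111033835-111033874, minus strand): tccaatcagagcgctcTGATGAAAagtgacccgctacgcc
Gars (chr6:55037955-55037994, minus strand): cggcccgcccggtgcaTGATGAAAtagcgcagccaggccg
Iars (chr13:49682121-49682160, minus strand): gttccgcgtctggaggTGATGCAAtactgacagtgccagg
Tars (chr15:11399650-11399689, plus strand): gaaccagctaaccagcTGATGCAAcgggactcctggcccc
Yars (chr4:129189890-129189929, plus strand): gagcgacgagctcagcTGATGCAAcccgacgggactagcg
In Aars, Iars, Tars and Yars the open position is filled by C in at least 1 match, and the first base of the match lies within 30 bases of the start site in Tars, Yars, Gars and Iars and for 1 of the Aars matches. The Tars promoter is given in full because it holds both this element and CACGTG, the letters bound by MYC with MAX, with both in capitals. It runs on the minus strand at chr15:11399609-11399908, and the element reads there in reverse.
Tars promoter: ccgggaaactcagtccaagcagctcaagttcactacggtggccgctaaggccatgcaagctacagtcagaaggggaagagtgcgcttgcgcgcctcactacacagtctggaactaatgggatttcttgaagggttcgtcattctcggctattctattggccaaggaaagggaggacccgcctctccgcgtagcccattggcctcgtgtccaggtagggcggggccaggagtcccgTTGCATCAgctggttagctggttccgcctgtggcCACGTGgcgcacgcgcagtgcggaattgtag
CACGTG, which reads the same on both strands and overlaps none of the matches printed here, was present in 4 of 13 cytosolic promoters, those of Aars, Farsb, Iars and Tars. It was present in 1 of 14 mitochondrial promoters, that of the glutamate gene Ears2, and in 7.15% of all promoters. The 4 measured genes with TGATGNAA all had differences above 0, from 0.090 for Gars to 0.28 for Tars (median 0.18). Iars enters here with its brighter probeset, and its dimmer probeset, at 0.0055, would be the lowest of them. The 7 measured cytosolic genes with a promoter but no match ran from -0.00064 to 0.23 (median 0.037), 6 of 7 above 0. The ranges overlap, none of these genes passed the test, and a match of letters does not show that the site is bound. Left out of this comparison are the measured cytosolic genes without a promoter at hand, Cars, Hars, Lars, Nars, Rars, Vars and Wars. They hold the highest and lowest cytosolic differences, 0.29 for Hars and -0.21 for Wars.

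Mitochondrial synthetase genes lay on both sides of 0, with 3 of the 4 members at an unadjusted p under 0.05. Lars2, for leucine, was at 7.21, 7.32 and 7.43 on the HLX arrays, against 7.01, 7.18 and 6.91 on the control arrays. Every HLX array lay above every control array, though HLX replicate 1 cleared control replicate 2 by a small step. The difference was 0.29 ± 0.11, or 1.22-fold (95% interval 1.02 to 1.46, unadjusted p = 0.0364, adjusted p = 0.9999 in limma). Wars2, for tryptophan, was at 7.09, 7.03 and 7.10 on the HLX arrays, against 7.25, 7.29 and 7.35 on the control arrays. Here every HLX array lay below every control array, and both groups were tight (7.07 ± 0.035 with HLX and 7.30 ± 0.048 with control, SD, n = 3 each). Its difference was -0.22 ± 0.087 (unadjusted p = 0.0366, adjusted p = 0.9999 in limma). Nars2, for asparagine, was at 6.53, 6.003 and 6.67 on the HLX arrays, against 7.11, 6.90 and 6.62 on the control arrays. HLX replicate 2 was the lowest array and control replicate 1 the highest, while HLX replicate 3 overlapped control replicate 3 (-0.47 ± 0.20, unadjusted p = 0.0493, adjusted p = 0.9999 in limma).

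Rars2, Yars2 and Cars2 were close to Lars2 in the size of their differences. Rars2, for arginine, was at 9.37, 9.52 and 9.12 on the HLX arrays, against 9.37, 8.74 and 8.97 on the control arrays. Yars2, for tyrosine, was at 7.91, 8.28 and 7.70 on the HLX arrays, against 7.71, 7.77 and 7.48 on the control arrays. Cars2, for cysteine, was at 8.34, 8.56 and 8.06 on the HLX arrays, against 8.04, 8.20 and 7.84 on the control arrays. In these 3 genes HLX replicate 2 was the highest array and HLX replicate 3 the lowest of its group, which overlapped the control arrays. Their differences were 0.31 ± 0.18, 0.31 ± 0.17 and 0.29 ± 0.16, in that order, and without HLX replicate 2 they were 0.22, 0.15 and 0.17. Rars2 rested most on the control arrays, at 0.17 without control replicate 2 and 0.48 without control replicate 1.

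Below 0, beside Nars2 and Wars2, stood the phenylalanine gene Fars2 and the proline gene Pars2. Fars2 was at 7.91, 7.82 and 8.44 on the HLX arrays, against 8.56, 8.39 and 8.11 on the control arrays. Pars2 was at 6.42, 5.88 and 6.18 on the HLX arrays, against 6.57, 6.26 and 6.52 on the control arrays, and its mean lay below the median of all probesets. In both genes HLX replicate 2 was the lowest array and control replicate 1 the highest, and the groups overlapped (-0.30 ± 0.19 for Fars2 and -0.29 ± 0.16 for Pars2). Without HLX replicate 2 the differences were -0.18 for Fars2, -0.15 for Pars2 and -0.28 for Nars2. Fars2 was at -0.49 without HLX replicate 3. Without control replicate 1 the differences were -0.20 for Fars2, -0.23 for Pars2 and -0.36 for Nars2. The histidine gene Hars2 was at 7.54, 7.31 and 7.74 on the HLX arrays, against 7.26, 7.52 and 7.78 on the control arrays. The threonine gene Tars2 was at 7.83, 7.83 and 7.88 on the HLX arrays, against 7.83, 7.85 and 8.02 on the control arrays. The groups overlapped in both genes. Mars2, for methionine, was at 7.95, 7.78 and 8.06 on the HLX arrays, against 7.998, 7.87 and 7.70 on the control arrays. Hars2, Tars2 and Mars2 differed by 0.0097 ± 0.17, -0.054 ± 0.095 and 0.077 ± 0.12, in that order, and the remaining Vars2, Aars2, Sars2, Ears2 and Iars2 ran from -0.063 for Iars2 to 0.13 for Vars2.

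The enzymes of a given amino acid did not share a pattern across the compartments. For tyrosine both genes lay above 0, Yars at 0.26 and Yars2 at 0.31, and for tryptophan both lay below 0, Wars at -0.21 and Wars2 at -0.22. For leucine, arginine and cysteine the mitochondrial gene lay at 0.29 to 0.31 and the cytosolic gene between -0.00052 and 0.037. For histidine and threonine the cytosolic gene stood at 0.28 to 0.29 and the mitochondrial gene at 0.0097 and -0.054. For phenylalanine, proline and asparagine the mitochondrial gene had the lower difference. The cytosolic median exceeded the mitochondrial one by 0.048 (-0.033 without HLX replicate 2). On single arrays, the cytosolic minus mitochondrial median of deviations from each gene's mean had an SD of 0.14 between replicates. That SD describes single arrays, not a difference between group means. The difference between compartments was not tested. Among mitochondrial genes 6 of 9 of the class I fold (median 0.13) and 2 of 7 of class II (median -0.054) were above 0. Among cytosolic genes 6 of 9 of class I (median 0.036) and 7 of 8 of class II (median 0.065) were, leaving out Eprs, which holds both folds. Of the 11 measured cytosolic genes reported to respond to amino acid shortage 7 were above 0 (median 0.036), and of the other 7 all were (median 0.040).

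Which array was highest differed between the compartments. Taking each gene against its own mean over the 6 arrays, HLX replicate 2 was the highest array for 9 of 18 cytosolic genes. For mitochondrial genes the same array was the lowest for 8 of 16. Control replicates 2 and 3 were each the lowest array for 6 of 18 cytosolic genes. Array order of this kind also followed the level of a gene: HLX replicate 2 was the highest array for 23.9% of the brightest 30% of genes and the lowest for 29.7% of the other 70%. Of the cytosolic genes 17 of 18 were in the brightest 30% and of the mitochondrial genes 6 of 16. The median difference was 0.022 in the brightest 30%, with 3372 of 5982 genes above 0, and -0.018 in the remainder, with 6099 of 13956. The part of signal level in the cytosolic count was not tested. After a repeated quantile normalization 13 of 18 cytosolic genes were above 0 and after cyclic loess 14 of 18.

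**Figure D3:**
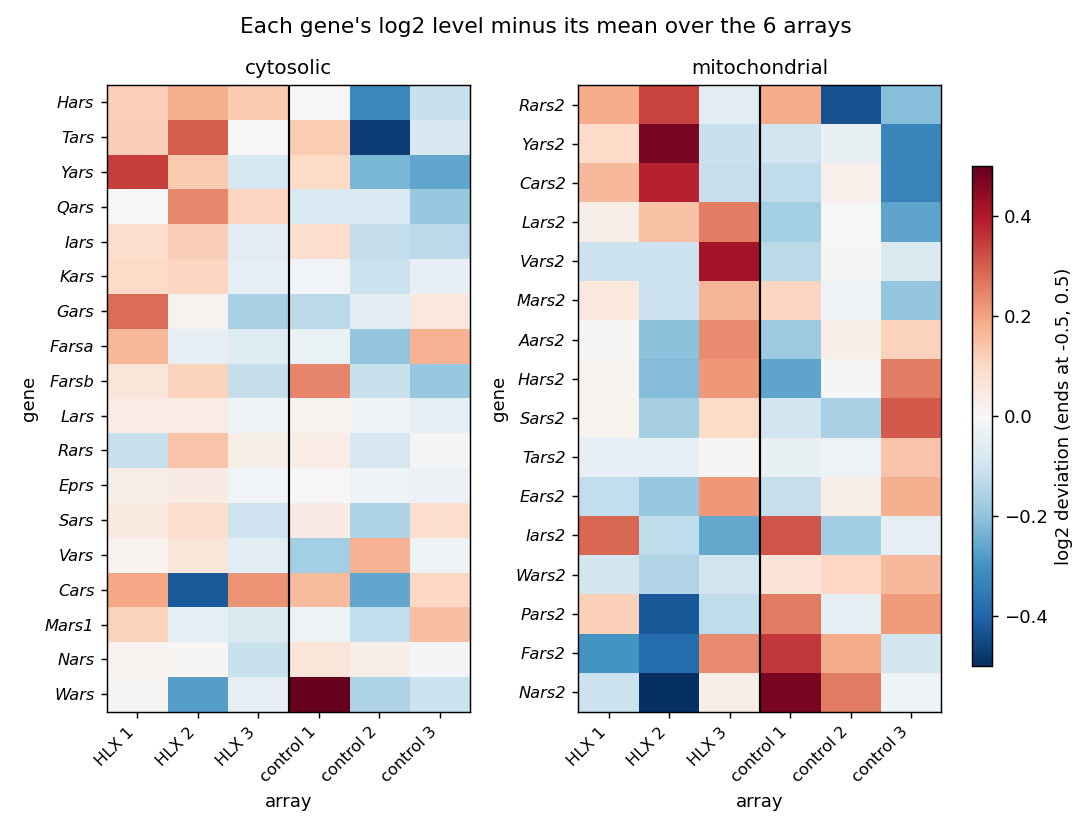
Colours give the log2 level of each synthetase gene on each array minus the gene's mean over the 6 arrays, HLX arrays left of the line and control arrays right of it, genes ordered by their difference. HLX replicate 2 is the highest array for 9 of 18 cytosolic genes and the lowest for 8 of 16 mitochondrial genes. Colours stop at the ends of the scale.

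Genes around tRNA charging showed no call either, 0 of 106 measured in 11 lists, with 7 at an unadjusted p under 0.05 (6.60%, beside 4.80% of all genes). The arrays of the groups did not overlap in 11 of the 106 (10.4%), beside 9.19% of all genes, so nothing particular to these lists is read from the genes without overlap. All 3 scaffold genes of the multisynthetase complex were above 0. Eef1e1 was at 10.50, 10.56 and 10.15 on the HLX arrays, against 10.27, 9.92 and 9.94 on the control arrays, and HLX replicate 3 alone overlapped the control arrays (0.36 ± 0.15, unadjusted p = 0.0463, adjusted p = 0.9999 in limma). Aimp2 was at 9.75, 9.23 and 9.49 on the HLX arrays, against 9.11, 9.27 and 9.61 on the control arrays. Aimp1 was at 9.34, 9.53 and 9.24 on the HLX arrays, against 9.25, 9.37 and 9.40 on the control arrays. Neither separated the groups, with differences of 0.16 ± 0.18 for Aimp2 and 0.032 ± 0.11 for Aimp1.

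Mitochondria make glutamine tRNA by amidation, not with an enzyme of their own, and start translation with formylated methionine. Of these 4 genes 1 was above 0. Qrsl1, a subunit of the amidating enzyme, was at 6.50, 6.63 and 6.62 on the HLX arrays, against 7.04, 6.66 and 6.85 on the control arrays. Its HLX arrays all lay below its control arrays, by a small step at the edge (-0.27 ± 0.12, unadjusted p = 0.056, adjusted p = 0.9999 in limma). Gatc, another subunit, differed by -0.061 ± 0.20 and the formyltransferase gene Mtfmt by 0.090 ± 0.088. Of 9 mitochondrial translation factors 5 were above 0. Mrrf, which recycles the mitochondrial ribosome, was at 7.25, 8.57 and 7.87 on the HLX arrays, against 8.59, 8.79 and 8.93 on the control arrays. It had the largest difference in these lists (-0.87 ± 0.30, adjusted p = 0.951 in limma), and all 3 HLX arrays lay below the control arrays, replicate 1 by the most. The release factor gene Mtrf1l stood at -0.28 ± 0.18 and the elongation factor gene Gfm2 at 0.18 ± 0.16.

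The amino acid response list held 13 of 24 genes above 0 (median 0.013), with 1 above and 1 below 0 at an unadjusted p under 0.05. Atf4, its transcription factor, was at 8.89, 9.15 and 8.93 on the HLX arrays, against 8.95, 9.002 and 9.19 on the control arrays. Asns, the asparagine synthetase gene that ATF4 is known to raise, was at 10.43, 9.86 and 9.89 on the HLX arrays, against 10.17, 9.93 and 10.16 on the control arrays. Ddit3, the stress factor CHOP, was at 8.23, 8.34 and 8.31 on the HLX arrays, against 8.54, 8.27 and 8.69 on the control arrays. None of them separated the groups, with differences of -0.059 ± 0.12, -0.029 ± 0.17 and -0.20 ± 0.12. Cebpb, a C/EBP factor, differed by 0.36 ± 0.12, Ppp1r15a, a phosphatase subunit that reverses eIF2 phosphorylation, by -0.33 ± 0.095, and the aminotransferase gene Gpt2 by 0.33 ± 0.16. Adjusted p from limma was 0.963 for Cebpb and 0.932 for Ppp1r15a, and neither overlapped between groups.

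In the list of eIF2 kinases and their regulators 5 of 6 measured genes were above 0 (median 0.22). Eif2ak4, the gene of the kinase GCN2, was at 8.15, 7.82 and 7.67 on the HLX arrays, against 7.52, 7.65 and 7.81 on the control arrays (0.22 ± 0.15). Gcn1, its activator, was at 7.67, 7.97 and 7.86 on the HLX arrays, against 7.48, 7.36 and 7.71 on the control arrays (0.31 ± 0.13, unadjusted p = 0.0462, adjusted p = 0.9999 in limma). Impact, which restrains GCN2, differed by 0.27 ± 0.27. All of them overlapped between groups.

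Of 17 amino acid transporter genes 9 were above 0. Slc3a2 and Slc7a5 encode the chains of a transporter of large neutral amino acids. Slc3a2 was at 9.65, 9.72 and 10.13 on the HLX arrays, against 9.14, 9.64 and 9.54 on the control arrays. Slc7a5 was at 10.13, 10.32 and 10.54 on the HLX arrays, against 10.33, 9.68 and 10.08 on the control arrays. Slc3a2 had no overlap between groups, by a narrow step (0.39 ± 0.18), and Slc7a5 overlapped (0.30 ± 0.18). Slc7a3, a transporter of basic amino acids, was below 0 (-0.21 ± 0.14).

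The list of amino acid sensing to mTORC1 held 14 genes, 3 of them above 0 (median -0.059). It mixes parts of mTORC1, its activators and its inhibitors, so the count does not give a direction of the pathway. Sesn1, of the sestrin family of leucine sensors, differed by -0.33 ± 0.14 (unadjusted p = 0.0481, adjusted p = 0.9999 in limma). Rraga, a GTPase of the pathway, differed by -0.27 ± 0.13 without overlap, and Tsc2, which restrains mTORC1, by -0.15 ± 0.10. Of 5 cytosolic elongation factors 1 was above 0, Eif5a (0.15 ± 0.18), with Eef2 at -0.072 ± 0.096 and Eef1b2 at -0.027 ± 0.085. Of 7 MYC family genes 3 were above 0, and Myc itself was at 11.12, 11.01 and 10.89 on the HLX arrays, against 10.90, 11.01 and 11.12 on the control arrays (-0.0018 ± 0.11). Mycn (-0.21 ± 0.11), Max (0.056 ± 0.085) and Mxd4 (-0.32 ± 0.20) followed, Mycn below and Max above the control arrays without overlap. Of 6 genes of selenocysteine charging and tRNA quality control 3 were above 0, with Pstk at -0.47 ± 0.35, Sepsecs at -0.20 ± 0.16 and Eefsec at 0.15 ± 0.13. Of 11 interferon response genes 4 were above 0 (median -0.23), with Irf1 at 0.45 ± 0.18 without overlap, Oasl1 at -0.28 ± 0.12, also without overlap, and Ifit3 at -0.63 ± 0.49.

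**Figure D4:**
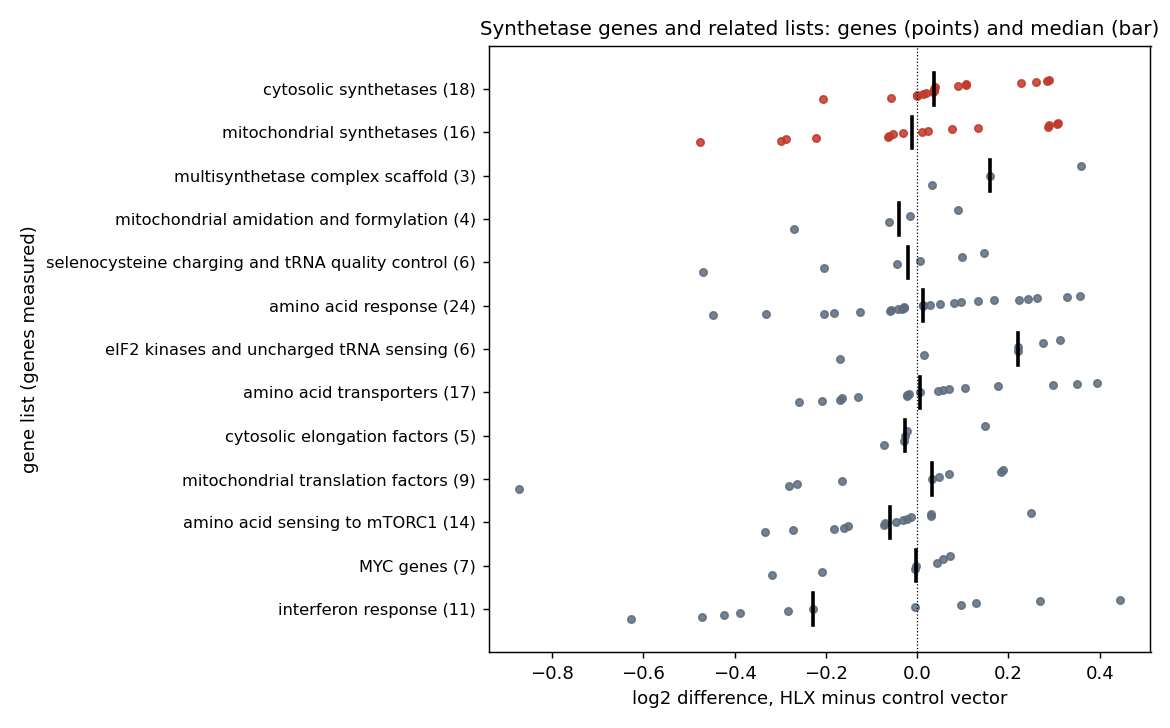
Each point is the log2 difference, HLX minus control vector, of a gene in the synthetase groups (red) or a related list (grey), and the bar is the median of the list, with the number of genes measured in brackets. Medians lie between -0.23 for interferon response genes and 0.22 for eIF2 kinases and their regulators, with 0.037 for cytosolic and -0.011 for mitochondrial synthetases. No gene shown passed the adjusted threshold.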

How the data were processed

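RMA in Affymetrix Power Tools, named by the submitters' processing notes, made the deposited log2 levels from the authors' arrays. That they are log2 follows from their range, and a genome build for the probes was not given in the sources used here. Of 35556 probesets 21789 had 1 gene symbol in the platform annotation, 1621 several and 12146 none. For 999 genes with several probesets the brightest over all 6 arrays was used, which gave 19938 genes, with no filter on dim probesets. Array medians were 6.32 to 6.40, and pairwise correlations 0.980 to 0.987.

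HLX was compared with control by limma 3.58.1 in R 4.3.3 (lmFit and eBayes, 4 residual degrees of freedom, prior 3.32), 2-sided, calling genes at 0.05 after Benjamini-Hochberg adjustment across the 19938 genes. The code was tested on simulated data. Lists were described by counts and medians, with no test over a list. Figures were drawn with matplotlib 3.10.9. Every member is counted. Values by array are given for members at an unadjusted p under 0.05, for the 3 largest differences in each direction per compartment (Mars1 fills a place below 0) and for their partners in the other compartment. From other lists the 3 smallest p and 8 genes fixed by name are printed. The marker lists are given as counts, with single markers named after their values were seen. Qars, Gars, Iars, Kars and other members outside the rule are named for completeness. The members, lists and alternatives were chosen with earlier results of these data known. The alternatives were a filter on dim probesets, 3 normalizations, another variance prior, array weights, the mean of probesets, the replicate number as a block and arrays left out.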

Additional observations from a re-analysis of the deposited data

How the results depend on the processing

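The count of called genes was 0 in limma over all genes and became 1, Hlx, with a trended and robust variance prior. No synthetase gene and no gene of the related lists was called in any of 15 alternative fits. Members above 0 numbered 17 to 25 in those fits, against 22 of 34, and members at an unadjusted p under 0.05 numbered 0 to 6. Over all genes that threshold held 958 genes, against 605 without dim probesets, where fewer genes were tested. The 24 members followed were those given by array, taken by p or size in these data, as their partners, or for Qars by its gap. Such a choice does not stand for all 34 members, and the fits share most of their arrays. Of the 24 members, 15 kept their direction throughout. The other 9 had at least 1 fit of opposite sign. With 1 array left out the ranges were -0.13 to 0.21 for Cars, -0.050 to 0.14 for Farsa, -0.047 to 0.17 for Farsb, -0.12 to 0.14 for Hars2, -0.063 to 0.075 for Mars1, -0.00089 to 0.15 for Mars2, -0.025 to 0.10 for Rars, -0.087 to 0.0045 for Tars2 and -0.33 to 0.028 for Wars. With median centring the differences were 0.021 for Cars and 0.021 for Mars1. With array weights they were 0.011 for Cars, 0.020 for Mars1 and -0.049 for Hars2. Without both arrays numbered 1 they were -0.039 for Farsa and -0.12 for Hars2. The cause was not tested. The cytosolic median minus the mitochondrial median was 0.048 and ran from -0.033 to 0.16 with 1 array left out, below 0 only without HLX replicate 2.

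Replicate numbers matched the arrays only in part: deviations of same-numbered arrays correlated at 0.20, 0.0085 and 0.14. HLX replicates 1 and 3 each correlated best with the control array of the same number. HLX replicate 2 correlated best with control replicate 1, at 0.043. Whether the arrays were made in pairs was not tested. With the replicate block 0 genes were called, 22 members were above 0 and 4 had an unadjusted p under 0.05. Signal limits the dimmest members, Aars2 and Pars2, whose means lay below the median of all probesets.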
